A study of Mus musculus with 26 samples.

Results

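The comparison set the 3 arrays labelled CLP against the 5 arrays labelled MPPFL-, which are 8 of the 26 mouse expression arrays of the series, over 18193 genes. Arrays were taken by their titles alone, so no measured value chose them. CLP stands for the common lymphoid progenitor, a marrow cell on the way to B, T and natural killer cells, and MPP for a multipotent progenitor, which can still form all blood lineages. The difference between them is the net change over the marrow part of the lymphoid path. Both populations came from bone marrow of male C57/Bl6 mice aged 2 months, and no treatment or altered allele is given for them. MPPFL+ (3 arrays), from the same kind of marrow, was placed between them, and CMP (3 arrays), the common myeloid progenitor, was set beside CLP for named genes. Another label spells MPPFL- and MPPFL+ as MMPFL, and CLP carries the name ALP there. The labels give no surface markers for the sorts and no number of pooled mice. They do not say that arrays of a population came from separate animals. The p-values therefore measure the spread between arrays, which may be technical. It is pooled over all 8 populations of the series, thymic ones included.

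In marrow, lymphoid commitment runs through multipotent progenitors that take up the cytokine receptors Flt3 and Il7r, transcribe the recombinase genes Rag1 and Rag2 and the polymerase Dntt, and stop transcribing genes of stem cells, red cells and platelets. Il7r encodes the alpha chain of the interleukin 7 receptor, which lymphoid progenitors need to survive and grow. Tek encodes TIE2, a receptor for angiopoietins on stem cells and on endothelium. These transitions have been studied together with DNA methylation, which acts on CG dinucleotides, and with E proteins, transcription factors of lymphoid cells that bind E-box sequences.

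The promoters of 3 genes that carry the comparison are shown to let their CG content be seen. Each is the stretch of 250 bases before the RefSeq transcription start in GRCm38.p6, written 5′ to 3′ on the strand of the gene in lower case, with every CG in capitals. Il7r and Tek mark the 2 ends of the comparison, and Plk1 is a kinase of mitosis. The Il7r window lies at chr15:9529877-9530126 on the minus strand and holds 1 CG dinucleotide, the Tek window at chr4:94739039-94739288 on the plus strand with 2, and the Plk1 window at chr7:122159185-122159434 on the plus strand with 18.
Il7r: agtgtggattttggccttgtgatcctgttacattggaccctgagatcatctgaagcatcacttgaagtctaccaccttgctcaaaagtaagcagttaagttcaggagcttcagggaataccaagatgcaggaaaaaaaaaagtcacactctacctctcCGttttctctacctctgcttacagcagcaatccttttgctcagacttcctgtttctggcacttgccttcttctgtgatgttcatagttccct
Tek: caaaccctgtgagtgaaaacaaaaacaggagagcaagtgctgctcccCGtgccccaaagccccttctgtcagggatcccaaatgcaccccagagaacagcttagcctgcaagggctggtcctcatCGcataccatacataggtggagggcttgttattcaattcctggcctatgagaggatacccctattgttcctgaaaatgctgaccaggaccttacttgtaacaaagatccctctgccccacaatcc
Plk1: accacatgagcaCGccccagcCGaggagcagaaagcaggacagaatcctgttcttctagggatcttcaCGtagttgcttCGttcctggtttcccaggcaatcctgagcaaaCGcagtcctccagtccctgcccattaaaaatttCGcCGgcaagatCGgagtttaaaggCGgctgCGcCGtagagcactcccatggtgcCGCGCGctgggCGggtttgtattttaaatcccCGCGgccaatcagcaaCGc

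The promoters of 3 lymphoid genes that were higher in CLP are shown for a motif. Capitals here mark the E-box CAGGTG, or CACCTG where it lies on the other strand. The windows lie at chr2:101649533-101649782 on the minus strand for Rag1, at chr19:40994222-40994471 on the minus strand for Blnk and at chr16:16869256-16869505 on the minus strand for Vpreb1. They were picked from the genes with a match, after their values were seen.
Rag1: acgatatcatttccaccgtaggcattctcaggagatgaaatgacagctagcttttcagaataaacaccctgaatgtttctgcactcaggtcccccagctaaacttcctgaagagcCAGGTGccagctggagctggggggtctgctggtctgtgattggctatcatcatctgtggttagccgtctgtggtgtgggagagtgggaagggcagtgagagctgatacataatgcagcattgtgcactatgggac
Blnk: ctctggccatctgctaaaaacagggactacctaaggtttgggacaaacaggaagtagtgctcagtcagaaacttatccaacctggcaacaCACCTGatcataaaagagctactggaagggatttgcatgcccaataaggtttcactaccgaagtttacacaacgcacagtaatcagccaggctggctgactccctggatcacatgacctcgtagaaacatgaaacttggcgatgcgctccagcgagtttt
Vpreb1: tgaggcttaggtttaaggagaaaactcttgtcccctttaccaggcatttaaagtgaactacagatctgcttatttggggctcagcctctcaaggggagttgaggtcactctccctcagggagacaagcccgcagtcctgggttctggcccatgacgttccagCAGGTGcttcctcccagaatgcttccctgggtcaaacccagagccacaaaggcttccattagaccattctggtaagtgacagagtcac

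Levels are the authors' deposited log2 values, and 2.17, the lowest value of the table, recurs on every array and is called the floor here. A difference is CLP minus MPPFL- on the log2 scale, from a limma fit to all 26 arrays, and a gene is said to have passed, risen or fallen at a Benjamini-Hochberg adjusted p under 0.05. Near the floor means no more than 1 log2 unit above it on every array of a population. Where this held for the population with the lower level, the fold is written as "at least", which refers to the floor and leaves out the spread between arrays. The same wording is used where all arrays of that population hold 1 identical value. Differences from CMP and from the midpoint are printed as fitted, also near the floor. Errors are SDs over the 3 CLP arrays and the 5 MPPFL- arrays. Each array held 1 RNA extract of a sorted population in bulk, in which fewer cells of a type and less RNA per cell cannot be told apart.

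Cell type markers went with the 2 labels. Il7r was at 13.20, 13.19 and 13.30 in CLP, against 2.77, 3.35, 4.35, 2.92 and 3.35 in MPPFL- (difference 9.88, SE 0.64, adjusted p = 4.9e-10). Tek was at 2.35, 2.27 and 2.17 in CLP, against 8.42, 8.28, 8.39, 8.30 and 8.40 in MPPFL- (at least 68.3-fold lower, adjusted p = 2.2e-13). The 2 groups lay far apart for both genes. Of the 4 measured lymphoid progenitor markers, 4 were higher in CLP, and of the 4 measured stem cell markers, which also hold Procr, Hlf and Mecom, 4 were lower. Ly6d, a surface protein that divides CLP into fractions and is usually held to be absent from the surface of cells called ALP, was measured as RNA at 7.80, 7.06 and 7.63 in CLP, against 2.17, 2.17, 2.18, 2.18 and 2.18 in MPPFL- (at least 39.9-fold higher, adjusted p = 2.73e-14). Its RNA was near the floor on the MPPFL- arrays and well above it on the 3 CLP arrays.

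Markers of several mature cells were at or near the floor. This held in both populations for all 3 measured B cell markers and all 5 of endothelium and stroma. It also held for 3 of 4 T cell markers (Cd3e, Cd3g and Cd4). Of 3 natural killer cell markers it held for Ncr1 alone, and of 2 red cell markers for Hba-a1 alone. The mean of the natural killer markers ran from 8.02 to 8.23 on the CLP arrays and from 5.64 to 5.91 on the MPPFL- arrays. Klrd1 was higher in CLP (difference 7.69, adjusted p = 4.9e-12) and Nkg7 lower (difference -0.64, adjusted p = 0.0366). Slc4a1 of red cells was at 4.51 in CLP and 3.47 in MPPFL- (adjusted p = 0.0868). The mean level of the 5 macrophage and dendritic cell markers ran from 3.99 to 4.30 on the CLP arrays and from 3.14 to 4.32 on the MPPFL- arrays. Of these 5 genes 2 were higher in CLP (Itgax and Siglech), 2 were lower (C1qb and Adgre1) and C1qa did not pass. The call for Adgre1 was lost with values under 4 set to 4 (adjusted p = 0.163). The mean of the 5 granulocyte markers ran from 2.39 to 2.56 in CLP and from 3.26 to 4.71 in MPPFL-, where 1 of them, S100a8, was lower in CLP. All 3 megakaryocyte markers were lower in CLP, with means of 3.74 to 4.01 on the CLP arrays, against 8.75 to 9.85 on the MPPFL- arrays. The part of such cells in the results was not tested.

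Control probe sets of the array also differed. The actin signal from the 3′ end exceeded that from the 5′ end by 2.51 to 2.84 log2 units on the CLP arrays and by 3.12 to 4.08 on the MPPFL- arrays, without overlap. The hybridization controls averaged 10.6 to 11.05 in CLP and 11.3 to 11.5 in MPPFL-, also without overlap, whereas the Gapdh difference overlapped. With the actin difference as a covariate, 3810 genes passed in place of 4526. Xist was at 2.19 on all CLP arrays and at 2.19 to 4.45 on the MPPFL- arrays (adjusted p = 0.897), and Y-linked Eif2s3y was at 11.84 ± 0.25 in CLP and 12.73 ± 0.23 in MPPFL- (difference -0.89, SE 2.13, adjusted p = 1). The SE of 2.13 pools the spread of all 26 arrays, which holds Eif2s3y at 2.62 and 2.17 on the thymic arrays DN1 replicate 3 and DN2 replicate 2. With the 8 arrays alone Eif2s3y passed (adjusted p = 0.00828).

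Of the 18193 genes, 4526 passed (24.9%), of which 2716 were higher in CLP (14.9%) and 1810 were lower (9.95%). The arrays of the 2 populations did not overlap for 33.2% of all genes. Of 7355 genes near the floor in both populations, 77 passed. Among the 9096 genes above the median level, 24.8% rose and 15.3% fell. For lists of well expressed genes, such as those of DNA replication, the G1 phase and granulocyte and macrophage progenitors, these shares are the nearer background. Differences were large at both ends, with 124 rises and 115 falls of over 4 log2 units, and 491 rises and 504 falls of over 2. The population with the lower level was near the floor for 193 of the risen and 256 of the fallen genes. Rises made up 60.0% of the genes that passed. After quantile normalization, which moved the median difference of genes above the median level by -0.11 (0.12 as deposited), they made up 52.0%. Of the genes that passed, 4238 also passed after quantile normalization in the same direction, and 0 in the opposite direction. Where a gene had further probe sets, at least 1 of them passed in the opposite direction for 183 of 1597 risen and 86 of 1185 fallen genes. Of the 79 genes named here that passed and had further probe sets, 31 had none that passed in the same direction. Where the text does not say so beside the value, these were Kcng1, Fgf13, Itgal, Mycl, Id2, Hes5, Hdc, Ms4a2, Vcam1, Cdh5, Orc1, Mcm10, Rfc3, Cenpf, Xrcc6, Il10ra, Tgfbr3, Il15ra, F11r, Cd84, Uhrf1, Tet1 and Hoxb3.

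**Figure D1:**
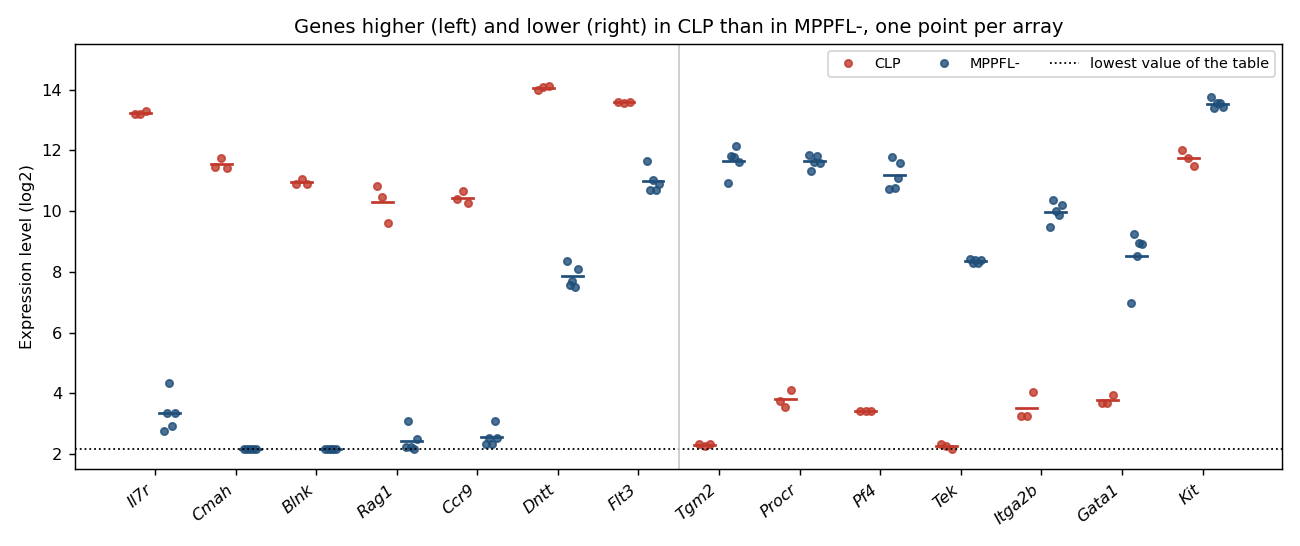
Expression level (log2) of 14 genes on each array, with CLP points left of MPPFL- points, bars at the population means and a dotted line at the lowest value of the table. The 7 genes to the left lay higher on every CLP array than on any MPPFL- array, and the 7 to the right lay lower.

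The 15 largest rises by the naming rule held Il7r, Rag1, Rag2 and Ccr9 as well as genes of B cell signalling, of surface sugars and of other classes. Il7r rose by 9.88, or 943-fold. Cmah, which hydroxylates sialic acid, was at 11.46, 11.73 and 11.43 in CLP, against 2.17 on each of the 5 MPPFL- arrays (at least 660.1-fold higher, adjusted p = 2.64e-13). Blnk, the adaptor that links the B cell receptor to its kinases, was at 10.91, 11.07 and 10.88 in CLP, against 2.17 on each of the 5 MPPFL- arrays (at least 440.2-fold higher, adjusted p = 3.99e-15). For both genes the MPPFL- arrays were at the floor, and the CLP arrays spread over less than 1 log2 unit. St6gal1, which adds sialic acid to surface glycans and makes the ligand of CD22, rose by 8.19 (SE 0.55, adjusted p = 9.07e-10), although its 1 other probe set did not pass. Ly86, the MD-1 partner of the receptor RP105, was at 11.58 ± 0.25 in CLP and 3.13 ± 0.18 in MPPFL- (difference 8.45, SE 0.33, adjusted p = 2.78e-13), and Mpeg1, the pore-forming perforin-2 of phagocytes and lymphocytes, at 13.63 ± 0.17 in CLP and 5.53 ± 1.41 in MPPFL- (difference 8.10, SE 0.55, adjusted p = 9.39e-10).

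The other large rises came from several classes. Klrd1, the CD94 chain of natural killer receptors, was at 11.32 ± 0.19 in CLP and 3.64 ± 0.26 in MPPFL- (difference 7.69, SE 0.36, adjusted p = 4.9e-12). Kcng1, a potassium channel subunit, was at least 226-fold higher, and Sdc4, the proteoglycan syndecan-4, was at least 134-fold higher. Slc27a2, an acyl-CoA synthetase and fatty acid transporter, rose by 7.07, Cox6a2, a subunit of cytochrome oxidase known from muscle, by 7.34, and Fgf13, an intracellular member of the fibroblast growth factor family, was at least 148-fold higher. All of these had adjusted p-values at or below 9.03e-10. The 1 other probe set of Kcng1 and that of Fgf13 did not pass.

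Early lymphoid genes were higher in CLP as a group. Of 29 measured members, 20 rose and 1 fell, with a median difference of 1.76, against 14.9% higher, 9.95% lower and a median of 0 over all genes tested. Rag1, a subunit of the recombinase that cuts antigen receptor genes, was at 10.82, 10.47 and 9.59 in CLP, against 2.24, 3.10, 2.24, 2.17 and 2.50 in MPPFL- (at least 229-fold higher, adjusted p = 8.28e-12). Rag2, its partner, was at 9.29, 9.72 and 9.97 in CLP, against 2.56, 2.21, 2.57, 2.57 and 2.71 in MPPFL- (at least 141-fold higher, adjusted p = 2.58e-11). The groups were separate for both, with MPPFL- near the floor. Dntt, which adds bases at the joints, was at 13.97, 14.09 and 14.11 in CLP, against 8.36, 7.58, 7.71, 7.50 and 8.11 in MPPFL- (difference 6.21, SE 0.21, adjusted p = 3.88e-14). Unlike the recombinase genes it was far above the floor on every MPPFL- array.

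Among receptors and transcription factors of lymphoid precursors, Ccr9, a chemokine receptor for homing to thymus and gut, was at 10.40, 10.66 and 10.27 in CLP, against 2.33, 2.53, 2.33, 3.09 and 2.53 in MPPFL- (at least 236-fold higher, adjusted p = 2.67e-10). Ccr7, a receptor for lymph node chemokines, was at least 25-fold higher (adjusted p = 8.71e-08). Irf8, a transcription factor of dendritic cells, macrophages and early B cells, was at 14.56 ± 0.10 in CLP and 7.996 ± 0.14 in MPPFL- (difference 6.57, SE 0.33, adjusted p = 1.24e-11). Flt3, the receptor tyrosine kinase whose ligand drives lymphoid and dendritic cell formation, was at 13.60, 13.56 and 13.58 in CLP, against 11.64, 10.71, 11.04, 10.69 and 10.90 in MPPFL- (difference 2.58, SE 0.36, adjusted p = 1.67e-05). Flt3 was thus present in both populations and higher in CLP, which is a check of labels rather than a finding if FL in the sort names refers to Flt3, a point the labels do not settle. Ikzf2, which encodes the zinc finger protein Helios, was the early lymphoid member that fell (8.83 ± 0.14 in CLP and 12.04 ± 0.059 in MPPFL-, adjusted p = 5.75e-11). Members that did not pass included the transcription factor genes Foxo1 (7.80 in CLP and 7.58 in MPPFL-, adjusted p = 0.87) and Lef1, which was at the floor in both populations.

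Genes of recombination and end joining moved in part. Of 13 members, 5 rose (38.5%, beside 14.9% of all genes) and 2 fell (15.4%, beside 9.95%). Beside the recombinase genes and Dntt, the polymerase Poll rose by 1.76 (adjusted p = 0.00107) and Xrcc6, the Ku70 subunit that holds broken ends, by 1.73 (adjusted p = 1.46e-05). Xrcc5, which encodes its Ku80 partner, was at 8.48 ± 0.18 in CLP and 9.52 ± 0.17 in MPPFL- and fell by 1.04 on the log2 scale (adjusted p = 0.00819), a call lost with the actin difference in the fit (adjusted p = 0.0694). Prkdc, the DNA-dependent protein kinase, was at 9.97 in CLP and 10.15 in MPPFL- (adjusted p = 0.804).

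B lineage genes were split between a part that rose and a part at the floor. Of 28 measured members, 10 rose (35.7%, beside 14.9% of all genes) and 0 fell, while 14 were near the floor in both populations. Ebf1, a transcription factor that specifies the B lineage, was at 7.64, 6.98 and 5.02 in CLP, against 2.17 on each of the 5 MPPFL- arrays (at least 20.7-fold higher, adjusted p = 4.21e-09). Vpreb1, part of the surrogate light chain, was at 9.20, 8.63 and 8.45 in CLP, against 3.49, 3.49, 3.49, 3.81 and 4.31 in MPPFL- (difference 5.04, SE 0.49, adjusted p = 1.85e-07). Each was higher on every CLP array than on any MPPFL- array. Ighm, the mu heavy chain, was at 12.61 ± 0.30 in CLP and 7.66 ± 0.55 in MPPFL- (difference 4.94, SE 0.25, adjusted p = 1.38e-11), but only 1 of its 10 other probe sets passed in the same direction. Bank1, a scaffold of B cell receptor signalling, rose by 4.63 (adjusted p = 2.67e-11). Blk, a Src family kinase, was at least 6.91-fold higher (adjusted p = 0.000178), a call lost with values under 4 set to 4 (adjusted p = 0.119). Pax5, Cd79a and Ms4a1, genes of committed B cells, averaged 2.17, 2.29 and 2.19 in CLP, against 2.17 for each in MPPFL-.

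T lineage genes moved in both directions. Of 24 members, 8 rose (33.3%, beside 14.9% of all genes) and 3 fell (12.5%, beside 9.95%), and 10 were near the floor throughout. Cd28, the costimulatory receptor, was at 8.61, 8.61 and 8.21 in CLP, against 2.17, 2.28, 2.23, 2.28 and 2.30 in MPPFL- (at least 74.8-fold higher, adjusted p = 3.78e-08). Ets1, a transcription factor of lymphocytes, was at 11.99 ± 0.26 in CLP and 7.63 ± 0.998 in MPPFL- (difference 4.36, SE 0.41, adjusted p = 1.03e-07). Cd5, Cd6, Cd247 and Zap70, which encode surface and signalling proteins of the T cell receptor complex, were all higher, Cd5 at least 13.3-fold, Zap70 at least 5.95-fold, and Cd6 and Cd247 by 3.46 and 3.66 on the log2 scale, with adjusted p-values at or below 8.46e-05. The 3 other probe sets of Cd247 did not pass. Gata3, a transcription factor of T cell entry that stem cells also express, averaged 4.45 ± 0.35 in CLP and 7.06 ± 0.18 in MPPFL- (difference -2.61, SE 0.28, adjusted p = 6.06e-07). Thy1, a surface glycoprotein gene, had a difference of -1.75 (adjusted p = 0.0025) and Lcp2, the adaptor SLP-76, differed by -1.52 (adjusted p = 2.28e-07). Cd3d, Cd3g and Il2ra were at the floor on every array of both populations.

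Of 24 Notch receptors, ligands and targets, 6 rose (25%) and 0 fell. Rises made up 14.9% of all genes and 24.8% of genes above the median level. Notch1, the receptor of T lineage entry, was at 13.67, 13.76 and 13.36 in CLP, against 10.71, 9.63, 10.25, 9.98 and 10.32 in MPPFL- (difference 3.42, SE 0.25, adjusted p = 3.5e-09). The targets Hes1 and Hes5 rose by 2.06 (adjusted p = 1.67e-05) and 1.21 (adjusted p = 0.0116), and Hes6, a related inhibitor of Hes1, by 2.21 (adjusted p = 2.67e-11). Dtx4, a Deltex family ubiquitin ligase, rose by 4.50 (adjusted p = 3.45e-10). The target Nrarp was at 5.93 in CLP and 6.13 in MPPFL- (adjusted p = 0.781), with overlap of the arrays.

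Of 20 natural killer and innate lymphoid genes, 4 rose (20%, beside 14.9% of all genes) and 3 fell (15%, beside 9.95%). In both populations 10 of the 20 were near the floor. Beside Klrd1, Nfil3, a transcription factor needed for innate lymphoid cells, was at least 13.1-fold higher (6.09 ± 0.27 in CLP and 2.39 ± 0.14 in MPPFL-, adjusted p = 4.12e-07). Id2, an inhibitor of E proteins, rose by 2.06 (adjusted p = 1.3e-05), though neither of its 2 other probe sets passed. Of 2 transcription factor genes of innate lymphoid cells, Rora fell by 1.91 on the log2 scale (adjusted p = 0.00595), and the fall of Zbtb16 was at least 4.07-fold (adjusted p = 0.000763). Tbx21 and Eomes, regulators of mature natural killer cells, were at the floor.

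**Figure D2:**
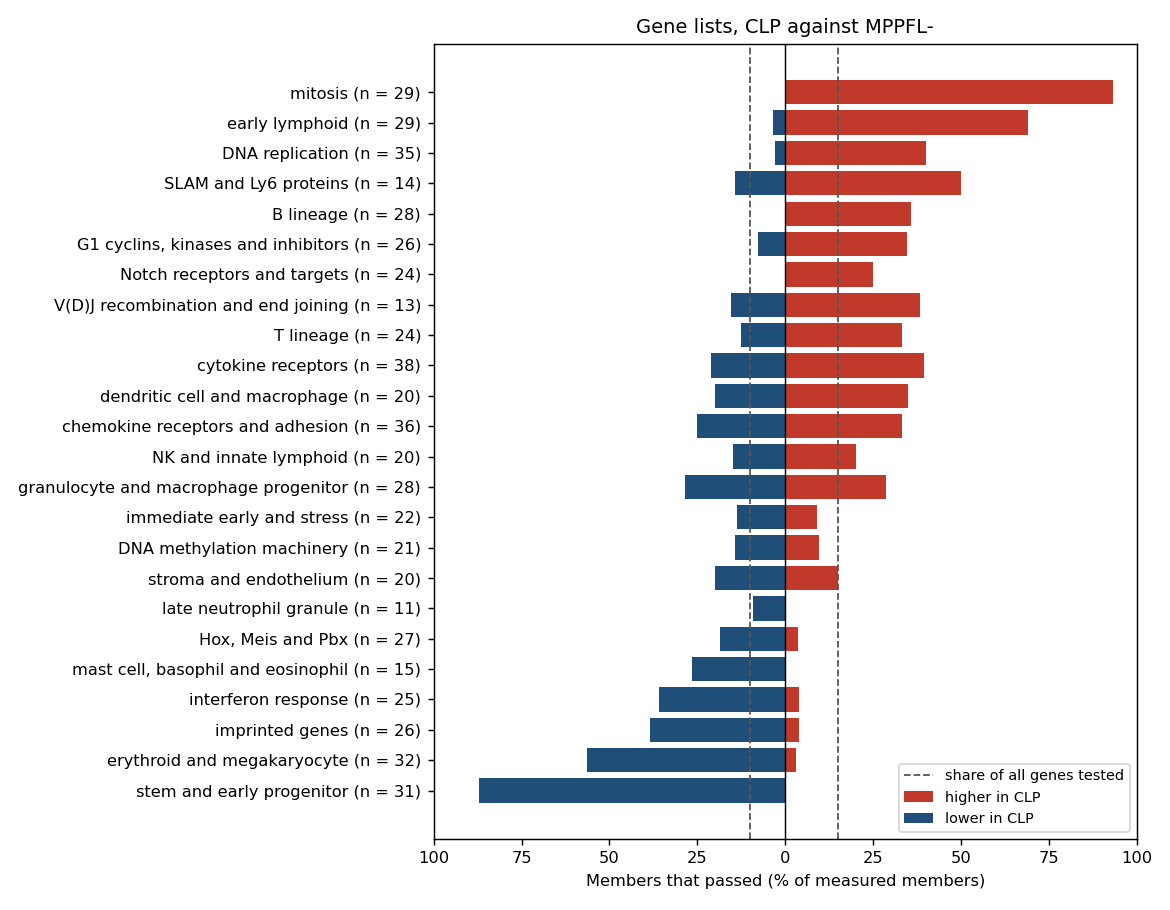
Share of measured members of each of the 24 gene lists that passed (% of members), with those higher in CLP to the right of 0 and those lower to the left. Dashed lines give the share of all genes tested, 14.9% and 9.95%; mitosis and early lymphoid genes reach farthest to the right, and stem and early progenitor genes farthest to the left.

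Stem and early progenitor genes were lower in CLP almost without exception. Of 31 measured members, 0 rose and 27 fell (87.1%, beside 9.95% of all genes), with a median difference of -3.15. Aldh1a1, an aldehyde dehydrogenase, was at 2.17 on each of the 3 CLP arrays, against 9.71, 10.46, 9.98, 10.49 and 10.002 in MPPFL- (at least 249-fold lower, adjusted p = 2.58e-12). Procr, a stem cell marker that binds protein C, was at 3.76, 3.57 and 4.13 in CLP, against 11.86, 11.31, 11.62, 11.83 and 11.60 in MPPFL- (difference -7.82, SE 0.39, adjusted p = 9.58e-12). For both genes every CLP array lay below every MPPFL- array by over 6 log2 units. Esam and Fgd5, 2 genes shared by stem cells and endothelium, were at least 55.1-fold and at least 63.4-fold lower, and Pdzk1ip1, a small membrane protein gene, fell by 6.08 on the log2 scale. Slamf1, the CD150 antigen of stem cells, was at least 13.9-fold lower (adjusted p = 1.62e-07), but neither of its 2 other probe sets passed.

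Kit, the stem cell factor receptor, fell by less, with 12.01, 11.75 and 11.48 in CLP, against 13.75, 13.39, 13.57, 13.57 and 13.44 in MPPFL- (difference -1.79, SE 0.22, adjusted p = 3.3e-06). Its level stayed far above the floor in CLP. The members that did not pass included Cd34, a surface sialomucin gene (13.45 in CLP and 13.09 in MPPFL-, adjusted p = 0.344), and Gfi1b, a transcriptional repressor needed for red cell and platelet formation (8.20 in CLP and 8.67 in MPPFL-, adjusted p = 0.317). For both the arrays overlapped.

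The largest falls over all genes by the naming rule held genes outside that list. Tgm2, tissue transglutaminase, was at 2.32, 2.28 and 2.32 in CLP, against 10.92, 11.80, 11.79, 12.16 and 11.62 in MPPFL- (at least 652-fold lower, adjusted p = 3.52e-12), and 3 of its 5 other probe sets passed in the same direction. Slc18a2, the vesicular monoamine transporter, was at 3.45, 3.44 and 2.51 in CLP, against 11.39, 10.44, 11.10, 11.11 and 11.32 in MPPFL- (difference -7.94, SE 0.41, adjusted p = 1.71e-11). Sox6, a transcription factor of red cells and other tissues, was at least 234-fold lower (adjusted p = 5.22e-11). Every CLP array was below 4 on the log2 scale for these 3 genes. Apoe, the lipid carrier, fell by 7.34 on the log2 scale, the matrix protein gene Mamdc2 by 7.67, Csgalnact1, an enzyme of chondroitin sulfate synthesis, by 7.33, and Dach1, a transcriptional repressor, by 7.19. Clec4e, the lectin receptor Mincle, fell by 6.76, Tjp1, the junction protein ZO-1, by 6.69, and Phldb2, which anchors microtubules at the cell cortex, was at least 100-fold lower, each with an adjusted p at or below 8.03e-09.

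Erythroid and megakaryocyte genes also fell as a group. Of 32 measured members, 18 fell (56.25%, beside 9.95% of all genes) and 1 rose, with a median of -1.86. Pf4, platelet factor 4, was at 3.44 on each of the 3 CLP arrays, against 10.74, 11.78, 10.77, 11.10 and 11.57 in MPPFL- (at least 216-fold lower, adjusted p = 6.99e-13). That CLP value is shared by 7 of the 26 arrays. Itga2b, the CD41 integrin of platelets, was at 3.26, 3.26 and 4.05 in CLP, against 9.46, 10.36, 9.99, 9.87 and 10.21 in MPPFL- (difference -6.45, SE 0.37, adjusted p = 8.94e-11). Gata1, the master regulator of red cells and platelets, was at 3.69, 3.69 and 3.97 in CLP, against 6.97, 9.23, 8.51, 8.96 and 8.92 in MPPFL- (difference -4.74, SE 0.36, adjusted p = 4.42e-09). None of these overlapped, and MPPFL- replicate 1 was the lowest of its population for each of the 3. Selp, Cavin2 and Mfsd2b, genes of platelet granules, caveolae and sphingosine-1-phosphate export, were at least 50.7-fold, at least 45.4-fold and at least 23.9-fold lower. Tfrc, the transferrin receptor that dividing cells also need, was the member that rose (12.64 ± 0.13 in CLP and 9.93 ± 0.24 in MPPFL-, adjusted p = 2.33e-07). Hba-a1 and Alas2, genes of haemoglobin synthesis, were at the floor in both populations.

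Of 15 mast cell, basophil and eosinophil genes, 4 fell (26.7%, beside 9.95% of all genes) and 0 rose. Hdc, which makes histamine, was at 3.17 ± 0.51 in CLP and 6.43 ± 1.14 in MPPFL- (difference -3.26, SE 0.52, adjusted p = 7.6e-05), and Ms4a2, a chain of the IgE receptor, at 2.86 ± 0.36 in CLP and 5.40 ± 0.48 in MPPFL- (difference -2.53, SE 0.27, adjusted p = 6.77e-07). Cpa3, mast cell carboxypeptidase, was at 8.02, 7.33 and 8.67 in CLP, against 9.65, 11.02, 10.96, 10.97 and 11.09 in MPPFL- (difference -2.73, SE 0.41, adjusted p = 4.08e-05). MPPFL- replicate 1 was again the lowest of its population.

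Granulocyte and macrophage progenitor genes were divided. Of 28 members, 8 rose (28.6%, beside 14.9% of all genes) and 8 fell (28.6%, beside 9.95%), and the median was 0.023. The falls were 5 without CLP replicate 2 or CLP replicate 3, and the counts were 6 and 10 after quantile normalization. Csf1r, the receptor for macrophage colony-stimulating factor, was at 12.45, 11.88 and 12.34 in CLP, against 7.11, 7.69, 6.56, 7.03 and 7.29 in MPPFL- (difference 5.09, SE 0.37, adjusted p = 2.64e-09). Cd33, a sialic acid binding receptor, was at 8.76, 8.74 and 8.97 in CLP, against 2.44, 2.39, 3.02, 2.26 and 2.36 in MPPFL- (at least 80.3-fold higher, adjusted p = 2.37e-10). Tyrobp, the adaptor DAP12, rose by 2.77 (adjusted p = 3.4e-08), and the annexin Anxa3 by 2.21 (adjusted p = 2.27e-06). The genes that fell included those of granule proteins. Ms4a3, a membrane protein gene of granulocyte progenitors, was at 3.06 ± 0 in CLP and 6.75 ± 0.95 in MPPFL- (at least 12.9-fold lower, adjusted p = 8.21e-06), Prtn3, a granule protease, fell by 2.27 on the log2 scale (adjusted p = 4.73e-07) and Lyz2, lysozyme, by 1.82 (adjusted p = 0.000149). Mpo, myeloperoxidase, was at 14.15 ± 0.16 in CLP and 14.01 ± 0.32 in MPPFL- (adjusted p = 1), Ctsg at 11.54 in CLP and 11.49 in MPPFL- (adjusted p = 1) and Cebpa at 4.54 in CLP and 4.41 in MPPFL- (adjusted p = 1). The arrays overlapped for each of these.

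Of 11 late neutrophil granule genes, 1 fell (9.09%, beside 9.95% of all genes), 0 rose, and 8 were near the floor in both populations. The gene that fell was S100a8 (3.73, 2.55 and 3.17 in CLP, against 8.86, 8.01, 6.68, 7.70 and 6.99 in MPPFL-, adjusted p = 0.000761). Of 20 dendritic cell and macrophage genes, 7 rose (35%, beside 14.9% of all genes) and 4 fell (20%, beside 9.95%). Itgax, the CD11c integrin, was at 7.21 ± 0.17 in CLP and 2.52 ± 0.20 in MPPFL- (at least 25.7-fold higher, adjusted p = 5.72e-11), and Siglech, a receptor of plasmacytoid dendritic cells, at 5.26 ± 0.84 in CLP and 2.17 ± 0 in MPPFL- (at least 8.5-fold higher, adjusted p = 5.36e-10). Cd74, the invariant chain, rose by 2.71 (adjusted p = 0.000442) and Bst2, tetherin, by 2.69 (adjusted p = 9.54e-07). C1qb, a complement chain of macrophages, was at 3.18, 3.37 and 3.09 in CLP, against 6.03, 6.25, 4.82, 7.92 and 7.03 in MPPFL- (difference -3.20, SE 0.48, adjusted p = 3.67e-05), and Vcam1, an adhesion molecule, at 2.98 ± 1.31 in CLP and 7.37 ± 1.60 in MPPFL- (difference -4.38, SE 0.81, adjusted p = 0.000338). In the stroma and endothelium list 3 of 20 rose (15%, beside 14.9% of all genes) and 4 fell (20%, beside 9.95%). The rises were 1 without CLP replicate 2, without MPPFL- replicate 2 or with a replicate block. Pecam1, the CD31 antigen that leukocytes also carry, rose by 3.59 (adjusted p = 7.56e-08), and Krt18, a keratin, fell by 4.71 on the log2 scale (adjusted p = 2.39e-10). Cdh5 passed although both populations were near the floor (2.29 in CLP and 2.17 in MPPFL-), as for 77 of the 4526 genes that passed, and its call was lost without CLP replicate 2 and without each MPPFL- array in turn (adjusted p = 0.0526 to 0.0599).

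Genes of mitosis were the group with the highest share of rises. Of 29 members, 27 rose (93.1%, beside 14.9% of all genes) and 0 fell, with a median of 1.39. On the 3 CLP arrays all 29 lay above the 5 MPPFL- arrays, where this held for 19.9% of all genes. With the actin difference in the fit, 24 of the 29 passed. Ube2c, a ubiquitin enzyme of the anaphase-promoting complex, was at 11.84, 11.28 and 11.61 in CLP, against 8.98, 9.31, 8.95, 9.17 and 8.65 in MPPFL- (difference 2.57, SE 0.27, adjusted p = 3.82e-07). Plk1, a kinase of the spindle, was at 10.02, 9.41 and 9.76 in CLP, against 7.48, 7.84, 7.23, 7.16 and 7.19 in MPPFL- (difference 2.35, SE 0.31, adjusted p = 9.06e-06). The kinesins Kif20a, Kif2c and Kif11 rose by 2.50, 2.19 and 2.06, and the kinetochore protein gene Cenpf by 2.04, with adjusted p-values at or below 1e-05. Mki67, a general mark of cycling cells, averaged 14.23 in CLP and 13.64 in MPPFL- (adjusted p = 0.0774) and Ndc80 at 10.03 in CLP and 9.45 in MPPFL- (adjusted p = 0.143) in this fit, and both passed with the 8 arrays alone (adjusted p = 0.00356 and 0.00417).

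DNA replication genes passed in a smaller share. Of 35 members, 14 rose (40%, beside 14.9% of all genes) and 1 fell (2.86%, beside 9.95%), with a median of 0.38. Orc1 and Mcm10, which act in the loading and start of the replicative helicase, rose by 1.82 (adjusted p = 1.99e-05) and 1.40 (adjusted p = 2.23e-06). The helicase subunits Mcm4 and Mcm6 were at 13.69 in CLP and 13.76 in MPPFL- (adjusted p = 1) and at 14.60 in CLP and 14.54 in MPPFL- (adjusted p = 1), and the clamp Pcna at 14.18 in CLP and 14.001 in MPPFL- (adjusted p = 0.615). The member that fell was Rfc3, a subunit of the clamp loader (7.94 ± 0.25 in CLP and 9.19 ± 0.51 in MPPFL-, adjusted p = 0.000687). Whether the mitosis and replication lists differed from each other was not tested.

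Among 26 genes of the G1 phase, 9 rose (34.6%, beside 14.9% of all genes) and 2 fell (7.69%, beside 9.95%). Mycl, a Myc family member, was at 8.55, 7.65 and 8.24 in CLP, against 2.25, 2.25, 2.25, 2.19 and 2.25 in MPPFL- (at least 60.1-fold higher, adjusted p = 4.04e-11). Mycn, its relative in early progenitors, was at 9.94 ± 0.14 in CLP and 11.80 ± 0.15 in MPPFL- and fell by 1.87 on the log2 scale (adjusted p = 0.000138), with 1 of its 2 other probe sets passing in the opposite direction. Myc was at 11.65 in CLP and 12.35 in MPPFL- (adjusted p = 0.191). The inhibitor genes also parted: Cdkn1a, which encodes p21, was at 10.11, 10.76 and 10.42 in CLP, against 5.30, 6.42, 5.33, 5.04 and 6.32 in MPPFL- (difference 4.75, SE 0.47, adjusted p = 1.9e-07), whereas Cdkn1c, which encodes p57 and holds stem cells at rest, was at 5.32, 5.05 and 3.75 in CLP, against 6.79, 7.63, 7.59, 7.37 and 7.09 in MPPFL- (difference -2.59, SE 0.47, adjusted p = 0.000328). Cdkn2c, the p18 inhibitor gene, rose by 1.87 (adjusted p = 0.000539), and the transcription factor gene E2f2 by 2.56 (adjusted p = 1.38e-08). Ccnd3, the D cyclin of lymphoid cells, rose by 2.13 (adjusted p = 4.7e-08), and 1 of its 2 other probe sets passed in the opposite direction.

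Of 38 cytokine and growth factor receptors, 15 rose (39.5%, beside 14.9% of all genes) and 8 fell (21.1%, beside 9.95%). Beside Il7r, Flt3 and Csf1r, the rises included Lifr, the receptor for leukaemia inhibitory factor, which was at 8.29, 8.28 and 9.02 in CLP, against 2.17 on each of the 5 MPPFL- arrays (at least 82.1-fold higher, adjusted p = 2.76e-10). Its partner chain Il6st, gp130, rose by 3.19 (adjusted p = 3.34e-09), Il10ra by 3.71 (adjusted p = 1.05e-05) and Ifngr1 by 3.16 (adjusted p = 1.69e-06). Tie1, a receptor related to Tek, was at least 21.3-fold lower (adjusted p = 2.2e-07), Tgfbr3, the coreceptor betaglycan, fell by 4.12 on the log2 scale (adjusted p = 6.43e-09) and Il15ra by 2.47 (adjusted p = 4.03e-05).

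Of 36 chemokine receptors and adhesion molecules, 12 rose (33.3%, beside 14.9% of all genes) and 9 fell (25%, beside 9.95%). Cxcr4, the marrow retention receptor, was at 12.03, 11.79 and 13.50 in CLP, against 8.46, 8.41, 8.70, 8.51 and 8.63 in MPPFL- (difference 3.90, SE 0.53, adjusted p = 1.23e-05), Itgal, the LFA-1 alpha chain, at 12.17 ± 0.093 in CLP and 7.27 ± 0.18 in MPPFL- (difference 4.89, SE 0.25, adjusted p = 1.98e-11), and Selplg, the P-selectin ligand, rose by 1.79 (adjusted p = 5.07e-09). The integrin gene Itga6 and the junctional adhesion molecule gene F11r fell by 3.10 on the log2 scale (adjusted p = 2.07e-10) and by 3.70 (adjusted p = 3.14e-09). In the SLAM and Ly6 families 7 of 14 rose (50%, beside 14.9% of all genes) and 2 fell (14.3%, beside 9.95%). Against the fall of Slamf1, Slamf6 rose by 3.14 (adjusted p = 7.4e-08) and Cd244a by 2.67 (adjusted p = 9.56e-10). Cd84, another SLAM receptor gene, fell by 0.74 on the log2 scale (adjusted p = 0.00404).

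Of 21 enzymes and readers of DNA methylation, 2 rose (9.52%, beside 14.9% of all genes) and 3 fell (14.3%, beside 9.95%). The median level of this list in CLP was 9.93. Among genes above the median level, 24.8% rose and 15.3% fell. Dnmt1, the maintenance methyltransferase, was at 13.27, 13.62 and 13.42 in CLP, against 13.18, 13.72, 13.58, 13.46 and 13.40 in MPPFL- (difference -0.033, SE 0.25, adjusted p = 1), and 1 of its 2 other probe sets passed, with a rise. The cofactor of Dnmt1, Uhrf1, was at 13.30, 12.91 and 12.91 in CLP, against 11.88, 10.80, 10.79, 10.58 and 10.83 in MPPFL- (difference 2.06, SE 0.28, adjusted p = 1.26e-05). For Uhrf1 the populations did not overlap, and MPPFL- replicate 1, at 11.88, lay above the others of its population. Dnmt3a, a methyltransferase that sets new marks, was at 9.91, 10.14 and 9.89 in CLP, against 10.43, 10.20, 10.41, 10.34 and 10.53 in MPPFL- (difference -0.40, SE 0.25, adjusted p = 0.322), and passed with the 8 arrays alone in the fit (adjusted p = 0.0172). Dnmt3b was at 10.81 ± 0.49 in CLP and 12.31 ± 0.07 in MPPFL- and was lower in CLP (difference -1.50, SE 0.30, adjusted p = 0.000679), but its 1 other probe set passed in the opposite direction, and the mean of both probe sets did not pass (adjusted p = 0.108).

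Of the TET enzymes, which oxidize methylated cytosine, Tet1 was at 10.89, 11.03 and 10.64 in CLP, against 10.21, 8.53, 9.12, 8.80 and 9.15 in MPPFL- (difference 1.70, SE 0.46, adjusted p = 0.00842), a call lost with the actin difference in the fit (adjusted p = 0.14) and with a replicate block (adjusted p = 0.0684). Tet2 was at 8.89 ± 0.50 in CLP and 9.97 ± 0.12 in MPPFL- (difference -1.07, SE 0.23, adjusted p = 0.00133), and its 1 other probe set passed in the opposite direction, so that the mean of both gave a difference of 0.17 (adjusted p = 0.586). Dnmt3l was at the floor and Tet3 at 2.47 in CLP and 2.47 in MPPFL- (adjusted p = 1).

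Of 27 homeobox genes of the Hox, Meis and Pbx families, 5 fell (18.5%, beside 9.95% of all genes) and 1 rose (3.70%, beside 14.9%). The rises were 3 without MPPFL- replicate 2, and 14 members were near the floor in both populations. Hoxb3 fell by 3.96 on the log2 scale (4.80 ± 0.26 in CLP and 8.76 ± 0.34 in MPPFL-, adjusted p = 9.57e-10), the Hox partner gene Pbx3 by 2.44 (adjusted p = 0.000481) and Meis1, a partner of Hox proteins in stem cells, by 1.76 (adjusted p = 5.79e-05). Hoxa9, which multipotent and lymphoid progenitors share, was at 13.96 in CLP and 14.40 in MPPFL- (adjusted p = 0.0634), and passed with the 8 arrays alone (adjusted p = 0.00146). Of 26 imprinted genes, which are transcribed from the copy of 1 parent, 10 fell (38.5%, beside 9.95%) and 1 rose (3.85%, beside 14.9%). Grb10, a brake on growth factor receptors, was at 2.57, 2.48 and 2.17 in CLP, against 9.46, 10.19, 9.97, 10.44 and 9.85 in MPPFL- (at least 191-fold lower, adjusted p = 2.11e-12), but neither of its 2 other probe sets passed. Phlda2, a growth restrainer of the placenta, was at least 35.1-fold lower, and Ndn, necdin, fell by 3.19 on the log2 scale (adjusted p = 5.83e-07). Igf2r, the receptor that clears insulin-like growth factor 2, rose by 2.04 (adjusted p = 0.00419).

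Interferon response genes fell in 9 of 25 cases (36%, beside 9.95% of all genes) and rose in 1 (4%, beside 14.9%), with a median of -0.54. Ifit1 was at 4.99, 4.22 and 5.32 in CLP, against 7.14, 8.30, 7.88, 7.98 and 8.23 in MPPFL- (difference -3.06, SE 0.46, adjusted p = 4.02e-05), and Gbp2, a guanylate-binding protein gene, at 9.48 ± 0.20 in CLP and 12.35 ± 0.10 in MPPFL- (difference -2.86, SE 0.26, adjusted p = 6.62e-08). Ifitm1 and Rsad2, both antiviral genes, fell by 2.86 on the log2 scale (adjusted p = 3.98e-07) and by 2.73 (adjusted p = 8.05e-05), whereas Bst2 was the member that rose. Of 22 immediate early and stress genes, 2 rose (9.09%, beside 14.9% of all genes) and 3 fell (13.6%, beside 9.95%). The rises were 0 without CLP replicate 1, CLP replicate 3 or MPPFL- replicate 4, with the actin difference in the fit or with a replicate block. They were 1 without CLP replicate 2, MPPFL- replicate 2 or MPPFL- replicate 5, and 4 with the 8 arrays alone. Rgs1, a regulator of G protein signalling, fell by 3.75 on the log2 scale (adjusted p = 4.56e-07) and the early response gene Ier3 by 1.34 (adjusted p = 0.00275), while Fos, at 14.13 ± 0.33 in CLP and 12.77 ± 1.44 in MPPFL-, and Jun, at 10.06 ± 0.28 in CLP and 9.65 ± 1.23 in MPPFL-, did not pass (adjusted p = 0.669 and 1).

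MPPFL+ lay between the 2 ends, with a correlation over genes of 0.987 with CLP and 0.986 with MPPFL-, against 0.967 between CLP and MPPFL-. These are correlations of population means over 18193 genes, which are not independent replicates. Of its 3 arrays replicate 3 stood apart. On it the late neutrophil genes Ngp, Camp and Lcn2 were high, with 3.13, 3.42 and 8.91 for Ngp, 2.60, 2.41 and 8.37 for Camp and 2.17, 2.17 and 7.57 for Lcn2 on replicates 1 to 3. Il7r was also higher on that array, with 3.35, 3.52 and 7.55 on replicates 1 to 3. For each gene MPPFL+ was tested against the midpoint between the means of CLP and MPPFL-. Of all genes 841 were off the midpoint (4.62%), with 586 above it (3.22%) and 255 below (1.40%). The share above the midpoint was 69.7%, and 52.0% after quantile normalization. The count was 1014 without MPPFL+ replicate 3, but 475 without replicate 1 and 424 without replicate 2.

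Of the 2716 genes higher in CLP, MPPFL+ was nearer the CLP level for 228, nearer the MPPFL- level for 108, and not off the midpoint by the test for 2380. The median share of the rise present at MPPFL+ was 71.2%, with quartiles of 47.3% and 90.9%. Of the 1810 genes lower in CLP, it was nearer CLP for 107, nearer MPPFL- for 182, and not off the midpoint for 1521, with a median share of the fall of 53.1% and quartiles of 23.9% and 81.5%. These shares describe the genes that passed and were not tested, and the MPPFL- and CLP means enter both comparisons. They were computed from the deposited values alone. Quantile normalization, which moved the share of genes above the midpoint from 69.7% to 52.0%, was not applied to them. Where CLP or MPPFL- was near the floor, a share refers to the floor.

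**Figure D3:**
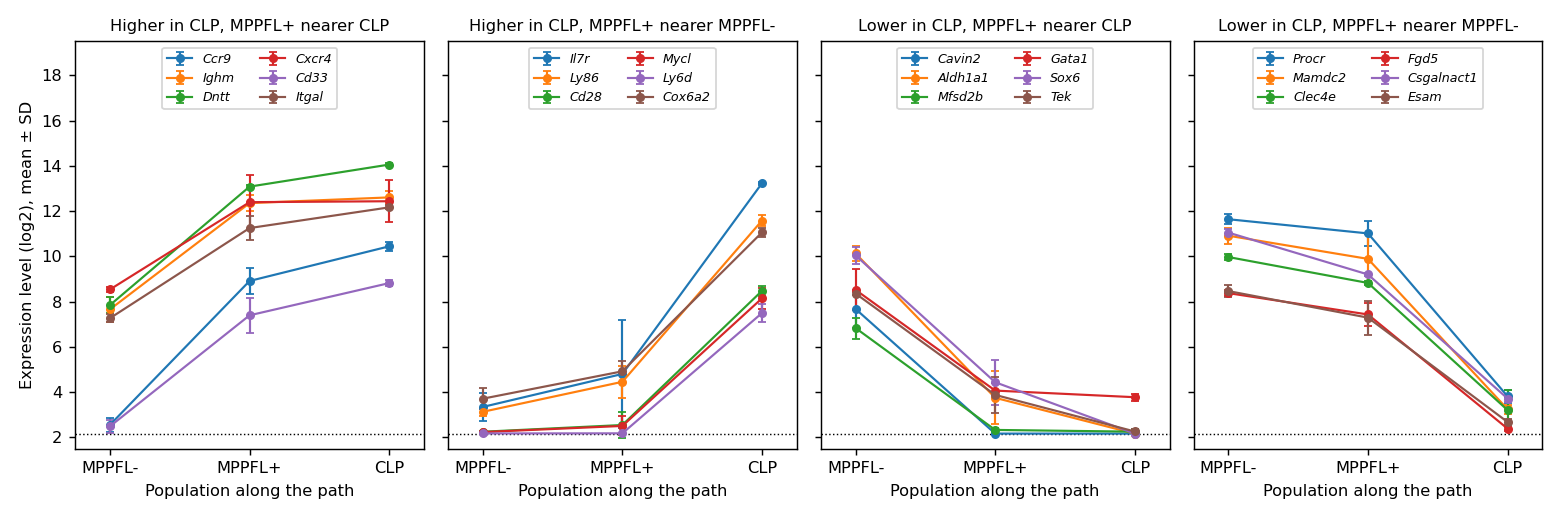
Mean expression level (log2) with SD in MPPFL- (n = 5), MPPFL+ (n = 3) and CLP (n = 3) for genes of 4 patterns, in each the 6 with the largest midpoint difference among the named genes whose MPPFL+ mean lies between the other means, with a dotted line at the lowest value. Dntt and Ccr9 are close to the CLP level in MPPFL+ while Il7r and Ly6d are not, and Tek and Gata1 are low in MPPFL+ while Procr and Mamdc2 are still high.

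Among the named genes, some lymphoid genes had most of their rise at MPPFL+. Dntt was at 13.08 ± 0.067 in MPPFL+, which is 84.3% of its rise (difference 2.13, SE 0.20, adjusted p = 9.62e-07 from the midpoint). Ighm was at 12.36 ± 0.34 (94.9%, adjusted p = 4.85e-06), Itgal at 11.25 ± 0.53 (81.3%, adjusted p = 0.000449) and Ccr9 at 8.91 ± 0.58 (80.6%, adjusted p = 0.00307). The call for Ccr9 was lost with the mean of its probe sets (adjusted p = 0.152). Other genes had little of their rise there. Il7r was at 4.81 ± 2.38 (14.8%, difference -3.48, SE 0.60, adjusted p = 0.00123), Ly86 at 4.46 ± 0.70 (15.7%, adjusted p = 4.85e-06) and Cd28 at 2.55 ± 0.56 (4.78%, adjusted p = 0.00199). Mycl was at 2.51 ± 0.42 (adjusted p = 1.07e-05), Ly6d at 2.18 ± 0.0038 (adjusted p = 3.87e-09) and Ebf1 at 2.17 ± 0 (adjusted p = 0.000147). Ly6d and Ebf1 were thus near the floor in both multipotent populations. Rag1 lay in MPPFL+ at 4.41, 5.21 and 4.59, or 29.2% of its rise (adjusted p = 0.00981), a call lost without MPPFL+ replicate 1 (adjusted p = 0.0765). Of other genes plotted with MPPFL+ nearer CLP, the pattern of Dntt, Cxcr4 kept its midpoint call under 13 of 20 alternatives and Cd33 under 19 of 20. Without MPPFL+ replicate 3, the array that stood apart, the share was 0.855% for Il7r. For Cd28 it was -0.41% without replicate 1 and 7.37% without either of the other two.

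The genes that fell were divided in the same way. Aldh1a1 was at 3.75 ± 1.17 in MPPFL+ (80.1% of the fall, adjusted p = 0.000147), Tek at 3.88 ± 0.79 (73.5%, adjusted p = 0.000342), Gata1 at 4.07 ± 0.34 (93.8%, adjusted p = 0.000638) and Mfsd2b at 2.33 ± 0.10 (98.3%, adjusted p = 2.02e-05). Most of the measured fall of these genes was present at MPPFL+. For Aldh1a1 and Tek, near the floor in CLP, these shares are upper limits. Mfsd2b was near the floor in both CLP and MPPFL+, so its share refers to the floor. Sox6, also plotted, kept its midpoint call under 16 of 19 alternatives. Procr, in contrast, was at 11.33, 11.35 and 10.37 on the 3 MPPFL+ arrays (8.01% of the fall, adjusted p = 8.78e-06). Mamdc2 was at 9.89 ± 1.12 (13.4%, adjusted p = 0.000316), Fgd5 at 7.43 ± 0.49 (15.8%, adjusted p = 5.85e-07), Esam at 7.29 ± 0.75 (20.3%, adjusted p = 0.000868) and Csgalnact1 at 9.20 ± 0.074 (25.2%, adjusted p = 1.03e-06). Without MPPFL+ replicate 3 the share was 3.91% for Procr, 4.95% for Mamdc2 and 12.8% for Esam. Tek and Procr, which both mark the MPPFL- end, thus differed in how far they had fallen at MPPFL+, although this pair was set side by side after the values were seen and its difference was not tested.

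Some genes left the range of the 2 ends. Of the 2716 risen genes, the MPPFL+ mean lay beyond the CLP mean for 423 and beyond the MPPFL- mean for 81. For the 1810 fallen genes these counts were 197 and 179. They take no account of the spread between arrays. All MPPFL+ arrays lay above every CLP and MPPFL- array and off the midpoint for 158 genes, and below for 55. Tgfbi, an extracellular matrix protein gene, was at 10.38, 10.01 and 10.03 in MPPFL+, 3.01 in CLP and 9.31 in MPPFL- (difference 3.98, SE 0.36, adjusted p = 8.65e-07). Gas6, a ligand of TAM receptors, was at 6.54, 6.96 and 5.23 in MPPFL+, 2.64 in CLP and 3.14 in MPPFL- (adjusted p = 1.28e-06). Postn, periostin, was at 8.24, 8.31 and 6.10 in MPPFL+, 5.08 in CLP and 3.07 in MPPFL- (adjusted p = 2.91e-06). Pglyrp1, a peptidoglycan recognition protein gene of neutrophils, was at 6.54, 6.53 and 5.60 in MPPFL+, with every CLP and MPPFL- array below 4 on the log2 scale (adjusted p = 5.27e-09). It was no higher on the array with the neutrophil genes than on the other two. Below both ends lay Cpa3, at 5.72, 4.95 and 4.96 in MPPFL+ (difference -4.16, SE 0.39, adjusted p = 1.09e-06), Trbv1, a T cell receptor beta segment, at 2.72, 2.85 and 4.07 (6.03 in CLP and 6.67 in MPPFL-, adjusted p = 0.000143), and Gprin3, a gene of a G protein effector family, at 2.85, 3.73 and 3.36 (6.07 in CLP and 5.63 in MPPFL-, adjusted p = 0.000772).

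CLP was also set against CMP, the progenitor of the myeloid branch, with the same 3 CLP arrays, which both comparisons share. Over all genes 4224 passed (23.2%), of which 3189 were higher in CLP than in CMP (17.5%) and 1035 were lower (5.69%). The lower genes were 1236, 1895 and 1741 without CMP replicates 1, 2 and 3 in turn. The poly-A controls averaged 3.98 to 4.38 on the CLP arrays and 8.59 to 9.34 on the CMP arrays. CMP replicate 1 stood apart, with hybridization controls at 13.2, against 10.6 and 10.5 on CMP replicates 2 and 3. On it 30.2% of probe sets were at the floor, against 36.9% and 34.8%. The part of these differences in the results was not tested. Il7r was at 3.24 ± 0.56 in CMP (CLP minus CMP, difference 9.99, SE 0.71, adjusted p = 4.41e-09), Rag1 at 2.57 ± 0.43 (difference 7.72, SE 0.43, adjusted p = 1.22e-10) and Blnk at 2.17 ± 0 (difference 8.78, SE 0.27, adjusted p = 2.63e-14). All 3 were low in CMP. Ly86, by contrast, was at 11.17 ± 0.68 in CMP (difference 0.41, SE 0.36, adjusted p = 0.52), Csf1r at 12.87 ± 0.90 (difference -0.64, SE 0.41, adjusted p = 0.302) and Ifngr1 at 10.71 ± 0.52 (difference -0.25, SE 0.41, adjusted p = 0.864), so that these 3 genes were higher in CLP than in MPPFL- and did not pass between CLP and CMP. Cdkn1a was at 9.47 ± 0.35 (difference 0.96, SE 0.52, adjusted p = 0.207). Irf8 was at 13.38 ± 0.31 in CMP (difference 1.18, SE 0.37, adjusted p = 0.0245) and Mpeg1 at 11.46 ± 0.34 (difference 2.18, SE 0.61, adjusted p = 0.013), and both were higher in CLP. The call for Irf8 was lost without CMP replicate 1 (adjusted p = 0.0866).

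Of the genes that fell against MPPFL-, some were low in CMP too. Fgd5 was at 2.55 ± 0.18 in CMP (difference -0.16, SE 0.21, adjusted p = 0.774) and Mamdc2 at 4.55 ± 0.83 (difference -1.30, SE 0.50, adjusted p = 0.0702), and neither passed between CLP and CMP, though Mamdc2 did without CMP replicate 1 (adjusted p = 0.0274). Phlda2 was at 2.18 ± 0 in CMP (difference 0, SE 0.28, adjusted p = 1). Tek was at 6.47 ± 0.53 (difference -4.20, SE 0.26, adjusted p = 5.2e-10) and Aldh1a1 at 8.93 ± 0.14 (difference -6.76, SE 0.40, adjusted p = 3.18e-10), higher than in CLP. For the red cell and platelet genes the CMP level was high, with 13.53 ± 0.42 for Pf4 (difference -10.10, SE 0.36, adjusted p = 1.73e-13) and 10.98 ± 0.12 for Gata1 (difference -7.20, SE 0.40, adjusted p = 1.18e-10). Plk1 was at 9.92 ± 0.69 in CMP (difference -0.19, SE 0.35, adjusted p = 0.919). It does not stand for its list: of the 29 mitosis genes, 16 were higher in CLP than in CMP and 0 were lower. Over all genes these shares were 17.5% and 5.69%.

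The promoters give a further description of the genes that passed. Windows of 250 bases before a RefSeq start in GRCm38.p6 were found for 14449 of the 18193 genes, 18106 windows in all. Over all of them the median number of CG dinucleotides was 12, and over genes above the median level it was 16. It was 16 for genes higher in CLP and 13 for genes lower in CLP, but it fell with the size of the difference. Genes with a rise of up to 1 log2 unit had a median of 17, then 16 from 1 to 2 and 13 from 2 to 4, and those with a rise of over 4 had 6. For the falls the medians were 15, 13, 10 and 9 in the same classes. The Il7r, Tek and Plk1 windows printed above, with 1, 2 and 18, are single examples and not typical of their classes. Il7r and Tek lie below the lower quartiles of rises and falls of over 4, which are 3 and 4. Plk1, among the rises from 2 to 4, lies above the median of 13.

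**Figure D4:**
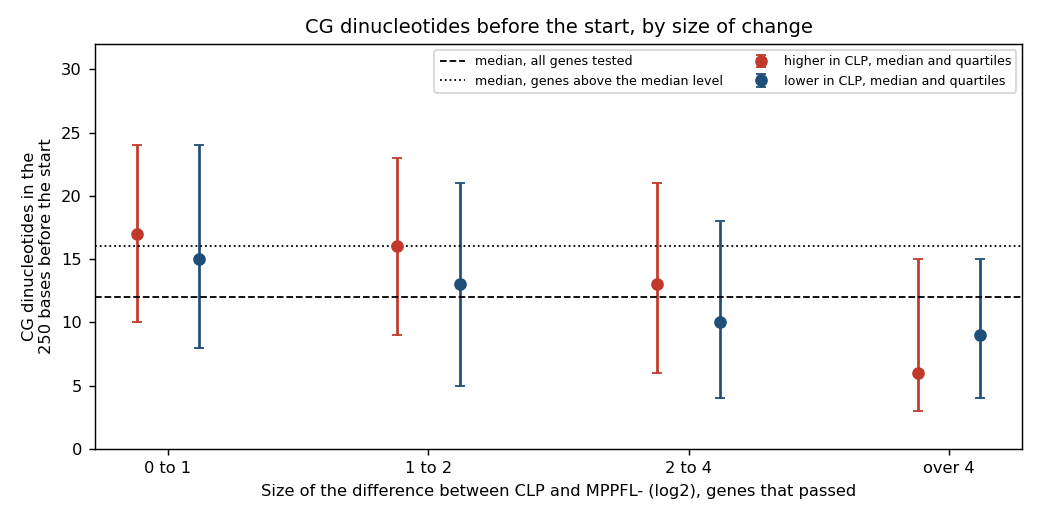
Number of CG dinucleotides in the 250 bases before the start (median and quartiles) for genes that passed, by size of the difference (log2), with genes higher in CLP left of genes lower in CLP. Dashed and dotted lines give the medians of all genes tested and of genes above the median level, 12 and 16; the median of the genes with a rise of over 4 is 6.

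By list, the median was 19 for mitosis genes, 10 for stem and early progenitor genes, 6 for early lymphoid genes and 5 each for B lineage and for erythroid and megakaryocyte genes. The E-box CAGGTG, searched on both strands, was in 17.2% of all windows, in 15.4% of those of genes higher in CLP and in 15.7% of those of genes lower in CLP. It was in 12 of 21 windows of the B lineage list (57.1%) and in 0 of 25 of the mitosis list. In the windows printed above it starts 135 bases before the start for Rag1, 160 for Blnk and 88 for Vpreb1. A match of letters is a description of the sequence and shows no binding, and methylation was not analysed here.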

How the data were processed

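RNA of sorted mouse marrow and thymus populations was measured on Affymetrix expression arrays, 1 per sample, from Trizol-extracted total RNA and biotin-labelled cRNA, per the labels' protocols. The values are the authors' deposited log2 table of 45101 probe sets, 1 column per array, and the sources used here do not give how they were normalized. Arrays have no read depth, and their number limits the precision.

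Probe sets were named from GEO's platform annotation: 34958 carried 1 gene, 932 several and 9211 none, of which the last 2 kinds and 64 control probe sets were left out. Each of 18193 genes was read from its probe set with the highest mean over the 26 arrays. limma 3.58.1 in R 4.3.3 (lmFit and eBayes, population as the sole term, 18 residual degrees of freedom) gave 2-sided p-values, adjusted over all genes by Benjamini-Hochberg with a threshold of 0.05. The contrasts were CLP minus MPPFL-, MPPFL+ minus the mean of the other two, and CLP minus CMP. The script was tested on simulated data. Promoter windows come from RefSeq's table for GRCm38.p6.

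Named genes were the 15 largest rises and falls among genes that passed without overlap, up to 6 per list and direction, 15 set genes and up to 5 genes at each end off the midpoint, with list members that did not pass named by value. The members, the 24 lists and the markers were chosen with earlier results of these data known. Alternatives were the arrays in the fit, quantile normalization, filters on low values, the choice of probe set, the actin difference, a replicate block, a trended prior and leaving out each array.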

Additional observations from a re-analysis of the deposited data

Results flagged for a closer look

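Within the 5 MPPFL- arrays, the 172 genes named were searched for an array far from the other four, by a gap of more than 0.71 of the whole range. Chance flags about 1 in 20 groups of independent values with a normal spread. Here 20 genes (11.6%) had such an array, with 9 of them on MPPFL- replicate 1. For Cdh5, Lcn2, Cd6 and Cox6a2 the other arrays held identical values, so that any departure was flagged. With such ties these rates cannot be compared, and no excess over chance can be read from them. On replicate 1 the level was high for Ifngr1 (8.48, against at most 7.16 on the other arrays), Uhrf1 (11.88, against at most 10.83) and Gas6 (4.41, against at most 3.01). It was low for Tjp1 (9.40, against at least 10.07) and Cpa3 (9.65, against at least 10.97). Near the floor, replicate 1 was also apart for Ccr7 (2.17), Cdh5 (2.17), Camp (2.77) and Lcn2 (2.25). MPPFL- replicate 2 was apart for Hes6 (9.40), Xrcc6 (11.49) and Meis1 (13.90), and replicate 3 for Dtx4 (5.21), Cd33 (3.02) and Itgax (2.17). MPPFL- replicate 4 was apart for Ccr9 (3.09), Cd6 (3.98), Mycl (2.19) and E2f2 (6.33), and replicate 5 for Cox6a2 (2.88). Without MPPFL- replicate 1, 4312 genes passed.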

How the results depend on the processing

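Between CLP and MPPFL- the count of genes that passed ranged from 3489 to 5341 over 9 alternatives, against 4526 as reported, and from 3736 to 4599 with 1 array left out (2263 to 2751 higher, 1473 to 1848 lower). With every probe set tested on its own, 10347 passed, 5012 higher and 5335 lower in CLP, so that the share of rises was no longer above that of falls. Off the midpoint, where 586 genes lay above and 255 below as reported, every probe set on its own gave 1759, with 908 above and 851 below. There the replicate block left 390 above, and 427 lay below after quantile normalization, 166 with genes above the median level alone and 404 with the mean of the probe sets. With 1 array left out the midpoint counts were 424 to 1014, with 277 to 758 above and 147 to 256 below, and MPPFL+ replicates 1 and 2 moved them by over 1.5 times (475 and 424 without them). Between CLP and CMP, 4173 to 5083 genes passed with 1 CMP array left out, with 2937 to 3188 higher and 1236 to 1895 lower, an alternative added after the data were seen. The cause of these shifts was not tested.

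Of the 172 named genes, 160 kept direction and call between CLP and MPPFL- under each alternative that gave them a value (3532 of 3564 values). Off the midpoint, 40 of 65 named genes did. The difference of Tet2 reversed to 0.17 with the mean of its probe sets. The other exceptions were Blk, Adgre1, Cdh5, Xrcc5, Tet1, Dnmt3b, Dnmt3a, Eif2s3y, Hoxa9, Mki67 and Ndc80, each given above for 1 or more alternatives. Dnmt3a, Eif2s3y, Hoxa9, Mki67 and Ndc80 also passed with the 11 arrays of MPPFL-, MPPFL+ and CLP. With the mean of probe sets Dnmt3a (adjusted p = 0.0106) and Hoxa9 (adjusted p = 0.00247) passed. Hoxa9 also passed after quantile normalization (adjusted p = 0.0476), and Mki67 with genes above the median level alone (adjusted p = 0.0432). Cdh5 was also lost with the 8 or 11 arrays, the actin difference, a replicate block or values under 4 set to 4. Mitosis genes rose in 23 to 28 of 29 cases over the alternatives, early lymphoid genes in 17 to 23 of 29, and stem and early progenitor genes fell in 24 to 28 of 31, or 15 with genes above the median level alone, a filter that drops members and left 5 rises of B lineage, 4 of T lineage, 3 of SLAM and Ly6 and 4 of dendritic cell and macrophage genes, and 9 falls of erythroid and megakaryocyte, 5 of imprinted and 4 of chemokine receptor and adhesion genes. With the 8 arrays alone 4 genes of the G1 phase and 5 of DNA methylation fell. Without CLP replicate 2 the V(D)J list had 1 fall, and the rises of erythroid and megakaryocyte and of interferon response genes and the falls of DNA replication genes were 2 each. Without MPPFL- replicate 5 the mast cell, basophil and eosinophil list had 1 rise. Erythroid and megakaryocyte genes had 2 rises without MPPFL+ replicate 2, and without MPPFL+ replicate 3 there were 2 falls of late neutrophil and 2 rises of interferon response genes. These ranges were compiled after the data were seen. Same-numbered CLP and MPPFL- arrays correlated at 0.286, -0.02 and 0.019 in their deviations from the population means. Pairs with different numbers ran from -0.167 to 0.153. So few values, with the highest for replicate 1, cannot settle whether same-numbered arrays share more than a number. With that number as a block 3489 genes passed, 2051 higher and 1438 lower in CLP. Signal near the floor limits what can be said of dim genes, since 3614 genes were at the floor on all CLP and MPPFL- arrays.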

Other observations

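The thymic arrays of the series, double negative stages DN1, DN2 and DN3 (3 arrays each), give values for the CLP genes beyond marrow. These genes were picked after their values were seen, and no test was made. The thymic arrays differ from the CLP arrays in controls. The ribosomal RNA control was at 8.57 to 10.32 in DN1, 7.77 to 8.21 in DN2 and 12.9 to 13.2 in DN3, and at 12.2 to 12.4 in CLP. The poly-A controls averaged 2.49 to 2.56, 2.46 to 2.54 and 9.87 to 11.68 in DN1, DN2 and DN3, and 3.98 to 4.38 in CLP. All of these arrays are labelled male, but DN1 replicate 3 and DN2 replicate 2 had Xist at 13.59 and 12.99 with Eif2s3y at 2.62 and 2.17. DN1 replicate 1 had both genes high (12.2 and 12.8), and Xist was at 6.30 on DN2 replicate 3. The thymic means below include these arrays. Il7r averaged 10.53 ± 0.45 in DN1, 12.89 ± 0.16 in DN2 and 12.62 ± 0.31 in DN3. It was thus well above the floor in all 3, and averaged 13.23 in CLP. Rag1 averaged 7.03 ± 0.88 in DN1, 9.26 ± 0.53 in DN2 and 14.996 ± 0.66 in DN3, and Cd28 6.06 ± 1.45 in DN1, 6.83 ± 1.54 in DN2 and 10.21 ± 0.19 in DN3, both with their highest mean in DN3. Ccr9 had a dip in DN2, with 10.51 ± 0.27 in DN1, 4.38 ± 1.76 in DN2 and 11.96 ± 0.57 in DN3.

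Other genes high in CLP were low in the thymus. In DN1, DN2 and DN3 Blnk averaged 2.17 with no spread, Ebf1 averaged 2.18, 2.17 and 2.17, and Mycl averaged 2.57 ± 0.68 in DN1, 2.54 ± 0.27 in DN2 and 2.25 ± 0.0022 in DN3. Blnk and Ebf1 were near the floor there, as in MPPFL-. Klrd1 averaged 10.91 ± 0.078 in DN1, 4.49 ± 0.82 in DN2 and 3.40 ± 0 in DN3, and Csf1r 12.43 ± 0.23 in DN1, 5.15 ± 0.92 in DN2 and 2.84 ± 0.011 in DN3, so that both had means in DN1 close to those in CLP and lower ones in DN2 and DN3. Gata3, which was lower in CLP than in MPPFL-, averaged 8.31 ± 0.29 in DN1, 9.75 ± 0.14 in DN2 and 10.96 ± 0.26 in DN3, above its mean of 4.45 in CLP in each of these populations. Irf8, at 14.56 in CLP, averaged 8.37 ± 0.32 in DN1, 6.86 ± 0.56 in DN2 and 7.76 ± 1.09 in DN3.

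The GATA motif AGATAA, searched on both strands, was in 7.40% of all promoter windows and of the 24 lists most often in mast cell, basophil and eosinophil genes (4 of 13 windows, 30.8%), late neutrophil granule genes (3 of 10, 30%) and erythroid and megakaryocyte genes (7 of 29, 24.1%). After the B lineage list, the E-box was most frequent in chemokine receptor and adhesion genes (8 of 23, 34.8%), T lineage genes (6 of 19, 31.6%) and stroma and endothelium genes (4 of 13, 30.8%). These are descriptions of the letters, made with no test.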
